A study of Mus musculus with 15 samples.

Results

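The chemokine genes described here are Ccl21b, Ccl21c, Gm13304 and Ccl28. They were found by the RefSeq accession that the array files attach to each probe, and each of the 4 genes had 1 probe among 59705 features, of which 112 carried a gene symbol. RNA came from livers of the inbred mouse strain C57BL/6, 3 arrays a stage, at 5 stages: adults of 8 weeks, newborn pups (neonatal) and embryos at E17.5, E14.5 and E12.5 (days of embryonic life). The labels name no treatment or genetic change, and whether a stage's 3 arrays are separate animals is not said. The p-values below rest on the spread between samples alone, and that spread may be technical. Each sample is bulk RNA of liver, in which fewer cells of a type and less RNA per cell cannot be told apart. The values are 1-colour Agilent spot signals, given below as log2 signal from which the 75th percentile of the same array was taken (0 is a signal equal to that percentile), and an adjusted p is that of limma after Benjamini-Hochberg adjustment over 37357 features tested, called below 0.05.

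Chemokines are small secreted proteins that draw cells along a gradient through receptors on the cell surface. CCL21 is made by lymphatic endothelium and by the stroma of lymphoid organs, and it draws dendritic cells and naive T cells that carry the receptor CCR7. The mouse genome holds several near-identical Ccl21 genes. CCL28 is made by epithelium of mucosal surfaces and glands, binds the receptors CCR10 and CCR3, and draws antibody-secreting cells.

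In the RefSeq gene table (assembly GRCm38.p6, used for names because the array grid was built on mm9), 6 genes carried a Ccl21 symbol or synonym: Ccl21a, Ccl21b, Ccl21c, Ccl21d, Gm10591 and Gm13304. In that table Ccl21b and Gm13304 are on chromosome 4 and Ccl28 is on chromosome 13. Promoter windows from RefSeq on GRCm38.p6 show how alike some of the copies are before their starts. The 250 bases before the start of Gm13304 (chr4:42114537-42114786, plus strand) follow, with capitals at the bases that differ in another copy.
Gm13304: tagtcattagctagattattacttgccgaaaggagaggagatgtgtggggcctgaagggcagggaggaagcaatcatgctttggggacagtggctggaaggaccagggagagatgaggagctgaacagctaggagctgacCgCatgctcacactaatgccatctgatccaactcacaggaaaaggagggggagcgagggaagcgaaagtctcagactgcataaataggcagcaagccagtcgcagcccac
Over these 250 bases Ccl21d differed from Gm13304 at 1 base (C143T, counted from the 5′ end of the window) and Ccl21a at 2 bases (C141T and C143T, with its window moved by 1 base). The stretch around these bases shows both, again in capitals, for Gm13304 at chr4:42114657-42114699 (plus strand), Ccl21d at chr4:41903483-41903525 (plus strand) and Ccl21a at chr4:42774078-42774120 (minus strand).
Gm13304: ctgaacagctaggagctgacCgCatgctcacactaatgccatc
Ccl21d: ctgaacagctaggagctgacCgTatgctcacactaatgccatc
Ccl21a: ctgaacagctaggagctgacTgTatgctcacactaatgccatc
The table's window for Ccl21b matched Gm13304 at 33.2% of bases, for a reason that was not tested, and Ccl21c had no window. The likeness shown here thus covers neither of these probed copies, and it is of bases before the start, not of the RNA. Probe sequences were not used here, and RNA of near-identical copies may not be told apart by 1 probe, so the Ccl21b, Ccl21c and Gm13304 probes are treated below as 3 readings of Ccl21-type RNA and not as 3 separate genes. The window before Ccl28 (chr13:119623569-119623818, plus strand) matched Gm13304 at 30.1% of bases and holds 1 GC box (GGGCGG, searched on both strands, in capitals), a motif found in 32.7% of 32851 RefSeq windows of this length.
Ccl28: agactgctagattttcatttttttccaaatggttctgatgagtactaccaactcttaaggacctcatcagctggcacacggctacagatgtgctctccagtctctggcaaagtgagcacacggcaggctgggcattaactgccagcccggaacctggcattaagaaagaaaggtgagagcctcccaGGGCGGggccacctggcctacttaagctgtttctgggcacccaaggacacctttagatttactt
The TATA box (TATAAA, in 12.4% of all windows) and the AP-1 motif (TGANTCA, in 6.75%), searched on both strands, were not found in this window or in those of Gm13304, Ccl21a, Ccl21b and Ccl21d, and GGGCGG was not found in the latter. Only exact matches were counted, so near matches, such as cataaata in the printed Gm13304 window, were not.

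On 14 arrays 50.9% to 62.9% of noncontrol spots were well above background. On E17.5 replicate 1 this was 80.9%, and 55.8% of the 1200 negative-control spots there were also well above background, against 4.0% to 9.58% on the other arrays. Per the scan recorded in the files, 1 slide held replicates 1 and 2 of E17.5 with every array of the earlier stages (8 arrays), and E17.5 replicate 3 shared the other with the neonatal and adult arrays (7 arrays). A comparison of E12.5 or E14.5 with neonatal or adult liver is therefore a comparison across slides. None of 9 hepatocyte markers had a probe with a RefSeq accession, so the liver label could not be checked against them.

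The 3 Ccl21-type probes had their lowest level in newborn liver. In this scaling their highest mean was in adult liver and the next at E14.5, while under the other 3 scalings Ccl21c was highest at E14.5, and no probe was called higher at E14.5 than at E12.5. All 3 were well above background on all 15 arrays, and no negative-control spot was as bright as any of them on any array. The Ccl21b probe read 1.54, 1.17 and 0.98 on the E12.5 arrays in replicate order, then 1.78, 1.70 and 1.68 (E14.5), 0.88, 1.27 and 0.99 (E17.5), −0.39, 0.10 and 0.47 (neonatal) and 1.41, 2.76 and 3.19 (adult). Every neonatal array lay below every array of the other 4 stages. The Ccl21c probe read 2.78, 1.91 and 1.77 on the E12.5 arrays, then 2.66, 2.92 and 2.60 (E14.5), 2.07, 2.08 and 2.19 (E17.5), 1.19, 1.25 and 1.06 (neonatal) and 2.0, 3.04 and 3.36 (adult). Here too the neonatal arrays were the lowest, while the adult arrays overlapped those of all 3 embryonic stages. The Gm13304 probe read 1.81, 0.98 and 0.99 on the E12.5 arrays, then 0.98, 1.97 and 1.52 (E14.5), 0.79, 0.92 and 0.94 (E17.5), 0.01, 0.31 and 0.11 (neonatal) and 1.55, 2.99 and 3.20 (adult). Its neonatal arrays were again below all others. How many of all features had their neonatal arrays lowest was not counted. A moderated F test over the 5 stages called all 3 probes (adjusted p = 0.00122 for Ccl21b, 0.00498 for Ccl21c and 0.00165 for Gm13304), against 61.0% of all features tested, and it called them under every alternative run.

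**Figure D1:**
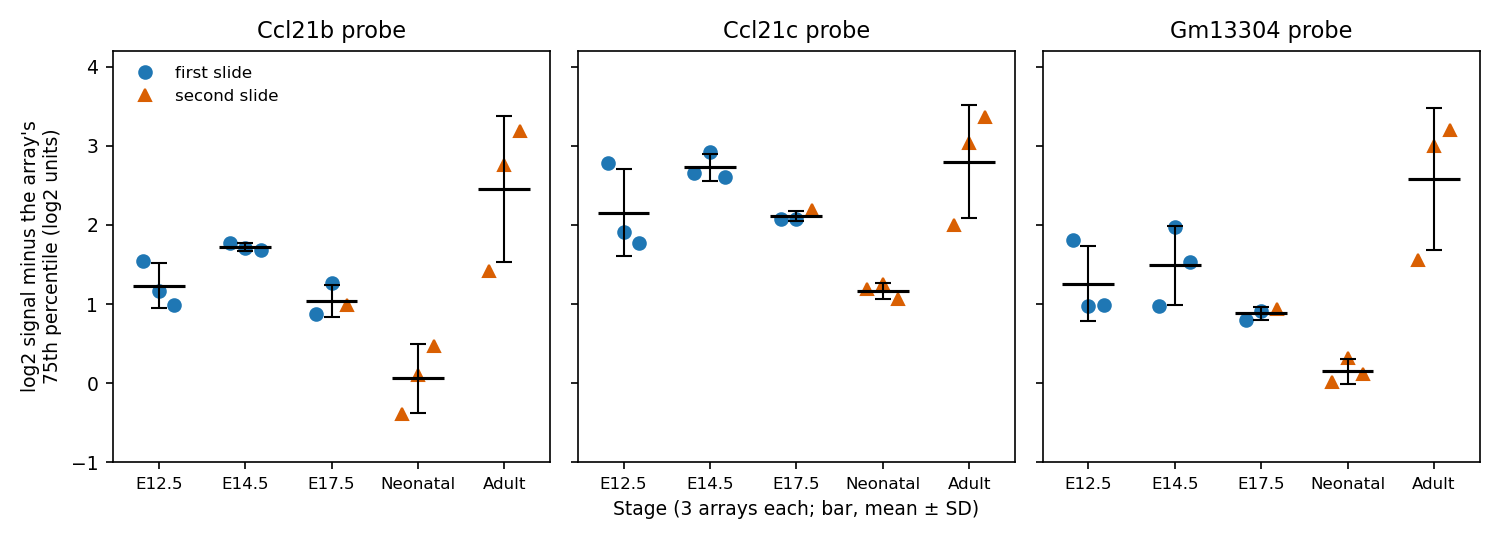
Log2 signal minus the array's 75th percentile for the Ccl21b, Ccl21c and Gm13304 probes at each stage; points are single arrays (circles, first slide; triangles, second slide), and bars give mean ± SD of 3 arrays. The neonatal arrays are the lowest for each probe, and adult replicate 1, the leftmost adult point, lies below the other 2 adult arrays.

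From neonatal to adult liver the 3 Ccl21-type probes rose. The log2 difference was 2.39 ± 0.38 (SE; 5.25-fold; adjusted p = 0.000348) for Ccl21b, 1.63 ± 0.34 (3.1-fold; adjusted p = 0.00269) for Ccl21c and 2.44 ± 0.40 (5.41-fold; adjusted p = 0.000449) for Gm13304, with 3 arrays per stage, and every adult array was above every neonatal array for each probe, as for 29.3% of all features. Thus 3 of the 4 members were called, each as higher. These 3 probes may read the same RNA, so here and below they do not count as 3 independent calls. Of all features tested, 25.9% were called in either direction, and 48.4% of these calls were higher. The median log2 difference of all features tested was 0.17 (0.11 after quantile normalization). Both stages lay on 1 slide, so within it the 3 differences could not change, and their adjusted p values were 0.00738, 0.0109 and 0.00466. The slide block, the replicate block and no filter on dim probes could not change the differences either, only their adjusted p. The call of each held under all 13 alternatives, with adjusted p from 1.39e-05 to 0.00738 for Ccl21b, from 0.000335 to 0.0182 for Ccl21c and from 3.17e-05 to 0.00466 for Gm13304. Without adult replicate 1 the differences were 2.91, 2.03 and 2.95.

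Adult replicate 1 read lower than both other adult arrays by at least 1.34 for Ccl21b, 1.04 for Ccl21c and 1.44 for Gm13304. Of 37339 features with values on the 3 adult arrays, 1069 (2.86%) had replicate 1 below both others by 1.04 or more. That cutoff is the smallest gap of the 3 Ccl21-type probes, so their passing it was fixed in advance. Among the 75 tested features with a gene symbol, no other passed it. For the median feature the gap to the lower of the other 2 arrays was −0.35. Such a gap is negative for 3 alike arrays as well, so it does not show whether replicate 1 read low in general. The adult spread of the 3 probes (SD 0.92, 0.71 and 0.90, n = 3) was accordingly wider than that at any other stage, where SDs ran from 0.05 to 0.55. Limma gives each probe 1 spread pooled over the 5 stages. The SEs and p-values of these probes in comparisons with adult liver therefore understate the adult spread. In comparisons without adult liver they can overstate the spread of the stages compared. For Ccl21c the SDs were 0.06 at E17.5 and 0.10 in neonatal liver, against an SE of 0.34 for their difference. Markers that could tell which cells carried the RNA were few: of the lists of markers of lymphoid stroma, T cells, B and plasma cells, myeloid cells and blood vessel endothelium (5 genes each) no gene had a named probe, and of 7 for lymphatic endothelium the 2 with a probe were Ccl21b and Ccl21c themselves. The part of these cell types in the result was not tested.

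The 3 steps before birth and across it were smaller. From E12.5 to E14.5 the log2 differences were 0.49 ± 0.38 for Ccl21b, 0.57 ± 0.34 for Ccl21c and 0.23 ± 0.40 for Gm13304 (adjusted p = 0.604, 0.439 and 0.868). None of the 4 members was called by limma, and none had an unadjusted p below 0.05, against 4.93% of features called. Gm13304 gave −0.01 without E14.5 replicate 2. From E14.5 to E17.5 they were −0.68 ± 0.38, −0.61 ± 0.34 and −0.61 ± 0.40 (adjusted p = 0.308, 0.299 and 0.387). Every E17.5 array was below every E14.5 array for the 3 probes, as for 13.5% of all features, and limma called 0 of the 4 members, with 0 below an unadjusted p of 0.05 and 7.11% of features called.

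From E17.5 to newborn liver the 3 probes had lower values on every array, as had 16.1% of all features, by −0.98 ± 0.38 for Ccl21b, −0.95 ± 0.34 for Ccl21c and −0.74 ± 0.40 for Gm13304. The adjusted p values were 0.0878, 0.0665 and 0.215. Limma called 0 of the 4 members at this step, 2 had an unadjusted p below 0.05 (Ccl21b and Ccl21c), and 18.1% of all features were called. The Ccl21c difference was called under the other scalings: −1.06 with quantile normalization (adjusted p = 0.0300), −0.85 with normexp (0.0355) and −1.06 in the value table of the authors (0.0247), within a range over its alternatives of 0.0247 to 0.302. With the slide as a block, only E17.5 replicate 3 carries the embryonic side of this step, and the values were −0.93, −1.02 and −0.79 (adjusted p = 0.430, 0.286 and 0.563).

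The next comparisons share the adult or the neonatal arrays with those above and are not independent of them. Against E17.5 and E12.5 the adult level was higher for Ccl21b and Gm13304. Against E17.5 the log2 difference was 1.41 ± 0.38 for Ccl21b (adjusted p = 0.0103) and 1.70 ± 0.40 for Gm13304 (0.00439), and that of Ccl21c was 0.69 ± 0.34 (0.132). So 2 of the 4 members were called higher, against 19.1% of all features. With the slide as a block the 2 called differences were 1.47 and 1.65 and neither was called (adjusted p = 0.0684 and 0.0541), and within the second slide, where E17.5 is 1 array assumed to vary like the other groups, the adjusted p values were 0.137 and 0.0796. Leaving out adult replicate 3 also ended the call of Ccl21b (1.04, adjusted p = 0.0597), and leaving out adult replicate 1 gave Ccl21c one (1.09, 0.0160). The ranges of adjusted p over the alternatives were 0.000315 to 0.137 for Ccl21b, 0.0160 to 0.444 for Ccl21c and 0.000242 to 0.0796 for Gm13304.

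Against E12.5 the adult level was higher by 1.22 ± 0.38 for Ccl21b (adjusted p = 0.0154) and 1.33 ± 0.40 for Gm13304 (0.0128), while Ccl21c differed by 0.64 ± 0.34 (0.126). Here 2 of the 4 members were called higher, as were 25.8% of all features, and the arrays of the 2 stages overlapped for each probe. With the slide as a block the differences of Ccl21b and Gm13304 were 1.31 and 1.24 and were not called (adjusted p = 0.174 and 0.218). The Ccl21b call was lost without E12.5 replicate 3 (1.1, 0.0534), adult replicate 2 (1.07, 0.0570) or adult replicate 3 (0.85, 0.0876). The Gm13304 call was lost without adult replicate 2 (1.12, 0.0538) or 3 (1.01, 0.0698). Ccl21c was called without E12.5 replicate 1 (0.96, 0.0269) or adult replicate 1 (1.04, 0.0126). The ranges over the alternatives were 0.000409 to 0.174 for Ccl21b, 0.0126 to 0.535 for Ccl21c and 0.000598 to 0.218 for Gm13304.

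Against E14.5, the embryonic stage with the highest mean for each of the 3 probes, the adult level was higher for Gm13304 alone of the 4 members (1.09 ± 0.40, adjusted p = 0.0346), against 26.6% of all features called higher. Ccl21b differed by 0.73 ± 0.38 (adjusted p = 0.127) and Ccl21c by 0.07 ± 0.34 (0.875, 95% confidence interval −0.65 to 0.80), and the sign of the latter turned under every other scaling. The Gm13304 call was lost with the slide as a block (1.01, 0.331) and with no filter on dim probes (1.09, 0.0625). It was lost without E14.5 replicate 1 (0.83, 0.146), E14.5 replicate 3 (1.11, 0.0713), adult replicate 2 (0.89, 0.122) or adult replicate 3 (0.78, 0.160), within a range of 0.00159 to 0.331. Without adult replicate 1, Ccl21b was called too (1.25, adjusted p = 0.00412, the lowest of its range up to 0.475).

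In this scaling the order of the stage means was the same for the 3 probes: adult, E14.5, E12.5, E17.5 and neonatal, from high to low. For Ccl21c the adult mean was above that of E14.5 in this scaling only and below it in the other 3. Neighbours in that order whose difference was not called were E14.5 and E12.5, E12.5 and E17.5 (differences of −0.19 ± 0.38, −0.04 ± 0.34 and −0.37 ± 0.40 for Ccl21b, Ccl21c and Gm13304, adjusted p = 0.779, 0.949 and 0.562; limma called 0 of the 4 members and 17% of features, and 0 members had an unadjusted p below 0.05), E17.5 and newborn liver, and adult and E14.5 for Ccl21b and Ccl21c. Among these, the arrays did not overlap for any of the 3 probes between E17.5 and newborn liver, for Ccl21b between E14.5 and E12.5 (E14.5 above, as for 11.3% of all features) and for Gm13304 between E17.5 and E12.5 (E17.5 below, as for 12.3%). The order of E12.5 and E17.5 was not fixed for Ccl21c, whose sign turned under every other scaling. In comparisons chosen after the values were seen, the newborn level was lower than at E14.5 by −1.66 ± 0.38 for Ccl21b (adjusted p = 0.00328), −1.56 ± 0.34 for Ccl21c (0.00227) and −1.34 ± 0.40 for Gm13304 (0.0147), against 21.2% of all features called lower. With the slide as a block these were −1.57, −1.67 and −1.43 and none was called (adjusted p = 0.174, 0.10 and 0.244, the highest of their ranges, which began at 0.000590, 0.000399 and 0.00911). Gm13304 was also not called without E14.5 replicate 2 (−1.10, 0.0687).

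Newborn liver also read lower than E12.5, by −1.17 ± 0.38 for Ccl21b (adjusted p = 0.0238), −0.99 ± 0.34 for Ccl21c (0.0300) and −1.11 ± 0.40 for Gm13304 (0.0378), against 22.4% of all features called lower. None was called with the slide as a block (−1.09, −1.10 and −1.19, adjusted p = 0.346, 0.270 and 0.324) or without E12.5 replicate 1 (−1.02, −0.67 and −0.84, adjusted p = 0.0772, 0.124 and 0.139). Leaving out neonatal replicate 1 or 2 ended the 3 calls as well, with differences of −0.95, −1.0 and −1.04 (0.0974, 0.0649 and 0.0977) and −1.19, −1.03 and −1.19 (0.0545, 0.0598 and 0.0631). Without neonatal replicate 3 Ccl21c (−0.94, 0.0816) and Gm13304 (−1.09, 0.0851) were not called, nor with no filter on dim probes (0.0588 and 0.0698). The ranges of adjusted p began at 0.0132, 0.0159 and 0.0294.

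**Figure D2:**
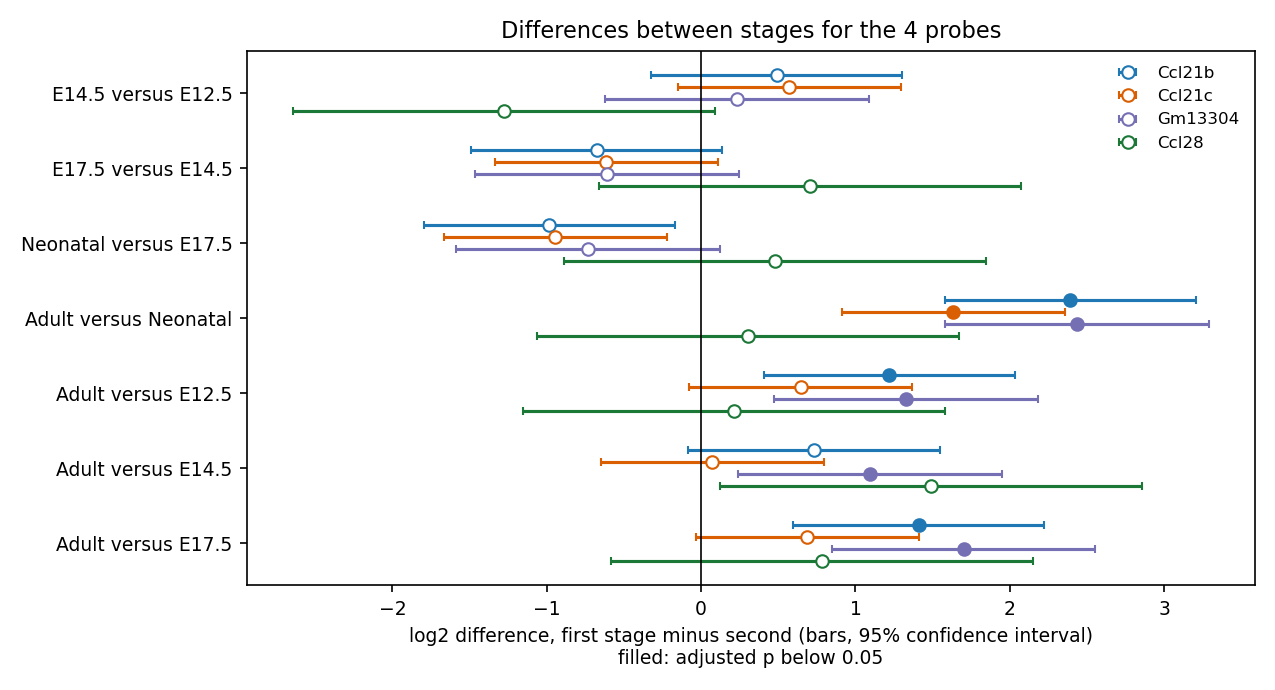
Log2 differences between stages (first minus second) for the 4 probes with 95% confidence intervals from limma; filled points have an adjusted p below 0.05. The 3 Ccl21-type probes lie between 1.63 and 2.44 for adult versus neonatal, and every Ccl28 point is open.

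Of all features tested, the 3 Ccl21-type probes were most like one another. Over the 15 arrays the Pearson correlation was 0.943 between Ccl21b and Gm13304, 0.920 between Ccl21b and Ccl21c and 0.901 between Gm13304 and Ccl21c, and for each probe the other 2 ranked 1 and 2 among 37356 other features. After the stage means were taken away the correlations were still 0.784, 0.785 and 0.914. These arrays share scaling, slides and, for near-identical copies, possibly target RNA. Gm21953, a neighbour in the gene order that was listed with the Ccl21 copies, gave 0.53 with Ccl21b, 0.74 with Ccl21c and 0.53 with Gm13304. With it left aside, Hmgcs1, an early enzyme of the cholesterol pathway, was the likest feature with another gene symbol for each, at rank 224 among all features for Ccl21b (0.741 for Ccl21b, 0.709 for Ccl21c and 0.737 for Gm13304), followed by Vamp7, a vesicle fusion protein (0.582, 0.479 and 0.685). Without the stage means Hmgcs1 gave −0.31, 0.01 and −0.13, so its likeness lay between stages. Hmgcs1 read 9.22, 8.51 and 8.86 on the adult arrays, with replicate 1 the highest, and 6.09, 5.43 and 5.76 on the neonatal ones. Then, again without Gm21953, came Hhipl2 for Ccl21b (0.490) and Gm13304 (0.614) and Gm20738 for Ccl21c (0.432).

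The differences between probes were also followed within each array. A difference between 2 probes within an array has no meaning of its own size, since probes differ in brightness, but a change of it shows unequal change. Ccl21b minus Ccl21c was −0.92 ± 0.28 (SD, n = 3) on the E12.5 arrays, then −1.01 ± 0.18 (E14.5), −1.07 ± 0.22 (E17.5), −1.11 ± 0.50 (neonatal) and −0.35 ± 0.21 (adult). Gm13304 minus Ccl21c went from −0.90 ± 0.10, −1.23 ± 0.39, −1.23 ± 0.06 and −1.02 ± 0.13 to −0.22 ± 0.21 over the same stages. For Gm13304 minus Ccl21c all 12 arrays of the other stages lay below the lowest adult array (−0.79 against −0.45), in each of the 4 scalings. For Ccl21b minus Ccl21c they did so barely (−0.589 against −0.586), and with quantile normalization and in the value table of the authors 11 of 12 did. Ccl21b minus Gm13304 was −0.13 ± 0.11 in adult and −0.09 ± 0.40 in neonatal liver. Between neonatal and adult liver the mean within-array difference moved by 0.76 for Ccl21b minus Ccl21c, 0.80 for Gm13304 minus Ccl21c and −0.04 for Ccl21b minus Gm13304. The exact two-sided permutation test gave p = 0.1, 0.1 and 0.9 (adjusted over the 3 pairs 0.15, 0.15 and 0.9), and with 3 arrays against 3 it cannot go below 0.1. For Ccl21b minus Ccl21c it gave p = 0.2 (adjusted 0.3) with quantile normalization and in the value table of the authors. Since its p cannot go below 0.1, this test could not decide whether the probes changed unequally.

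**Figure D3:**
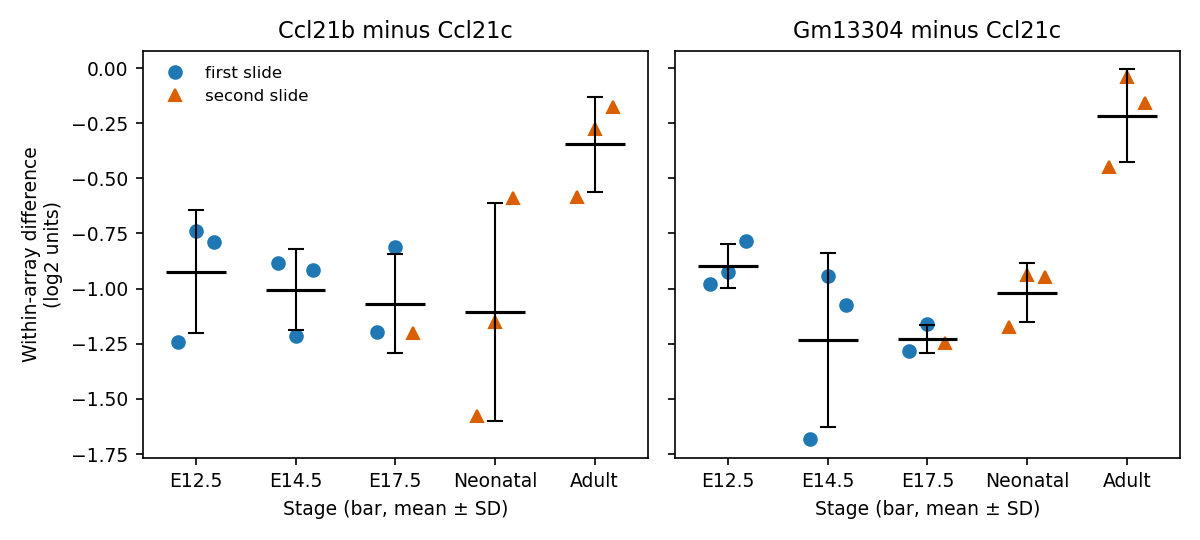
Within-array log2 difference of the Ccl21b and Gm13304 probes from the Ccl21c probe by stage; points are single arrays (circles, first slide; triangles, second slide), and bars give mean ± SD of 3 arrays. The adult means, −0.35 and −0.22, lie above those of the other 4 stages.

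Ccl28 was dim at every stage, and no comparison between stages was called. Its processed signal was 70.8, 23.1 and 93.8 on the E12.5 arrays, then 11, 29.9 and 55.7 (E14.5), 45.6, 36.5 and 25.2 (E17.5), 45.9, 34.8 and 71.0 (neonatal) and 41.4, 36.9 and 65.6 (adult), in linear units before scaling. It was well above background on all arrays of the last 3 stages, on 2 of 3 at E12.5 and on 1 of 3 at E14.5, so it passed the filter through the later stages. On the 3 neonatal arrays no negative-control spot was as bright as Ccl28, and on the adult arrays 0.174%, 1.51% and 0% were. At E14.5 these shares were 17.6%, 4.54% and 2.15%, at E12.5 0.0870%, 7.33% and 0%, and at E17.5 37.7%, 2.87% and 1.96%. On E17.5 replicate 1, where the negative controls themselves were raised to a median of 36.9, Ccl28 was 1.23-fold that median although the software counted it as well above background.

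**Figure D4:**
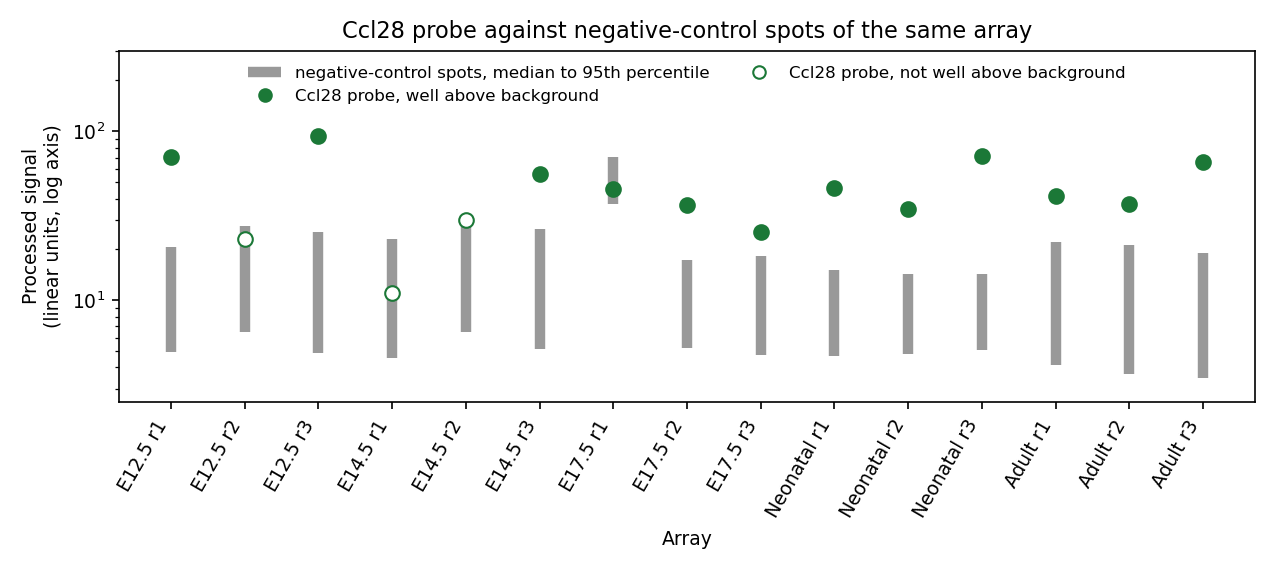
Processed signal of the Ccl28 probe on each array (points; open where not well above background) beside the negative-control spots of the same array (grey bar, median to 95th percentile; linear units on a log axis). Ccl28 lies above the bar on 12 arrays and within it on E12.5 replicate 2, E14.5 replicate 1 and E17.5 replicate 1.

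On the scaled log2 axis the stage means of Ccl28 ran from −1.92 ± 0.76 (SD, n = 3) in adult liver through −2.13 ± 1.33 at E12.5, −2.22 ± 0.47 in neonatal liver and −2.70 ± 0.27 at E17.5 to −3.41 ± 1.1 at E14.5. All stages overlapped, and the F test over the 5 stages was not called (adjusted p = 0.240; 0.0410 without E12.5 replicate 2, within a range up to 0.592). From neonatal to adult liver Ccl28 differed by 0.31 ± 0.64 (adjusted p = 0.748), with a 95% confidence interval of −1.06 to 1.67, so neither a decrease nor a rise of that size was told apart from no difference. Its differences at the earlier steps were −1.28 ± 0.64 (E14.5 minus E12.5, adjusted p = 0.331), 0.71 ± 0.64 (E17.5 minus E14.5, 0.544) and 0.48 ± 0.64 (newborn minus E17.5, 0.631). These sizes were not stable: over the 4 scalings they ran from −1.28 to −0.51, from 5.5e-05 to 0.71 and from 0.17 to 1.04, and without 1 array from −2.03 to −0.71, from 0.14 to 1.24 and from 0.25 to 0.71. Adult liver differed from E12.5 by 0.21 ± 0.64 (0.803) and from E17.5 by 0.78 ± 0.64 (0.370). The widest of its differences was adult against E14.5, 1.49 ± 0.64 (adjusted p = 0.0666). It was called with normexp background correction (0.70, 0.0351) and with the replicate number as a block (1.49, 0.050), and without E14.5 replicate 3 (2.02, 0.0244) or adult replicate 2 (1.85, 0.0460), within a range of 0.0244 to 0.281. Its E14.5 side rests on 1 array well above background.

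The correlations of Ccl28 over the 15 arrays were 0.06 with Ccl21b, −0.03 with Ccl21c and 0.22 with Gm13304. After the stage means were taken away they were 0.19, 0.26 and 0.36. Ccl28 was dim and its F test was not called, so a low correlation does not show an unlike course. Its likest named features were Taf1a, a subunit of the RNA polymerase I factor SL1 (0.618), Gm13305 (0.563) and Nim1k, a protein kinase (0.563). They ranked 199, 531 and 533 among 37356 other features, and without the stage means they gave 0.26, 0.29 and 0.41. Nim1k was near the floor as well. Its processed signal on the E14.5 arrays, 4.52, 6.53 and 5.16, equalled the negative-control medians, while E12.5 replicate 1 read 105.7.

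Few other genes of the pathway or of the neighbourhood could be read. Of 41 chemokines and receptors listed, 3 had a named probe, and these were Ccl21b, Ccl21c and Ccl28; no probe was named for Ccr7, Ccr10, Ccl19 or Ccl21a. Gm13305, which lies between Gm13304 and Ccl21b in the gene order of chromosome 4, was the only one of 12 listed neighbours with a named probe. It read 6.25, 5.59 and 5.78 in adult and 4.0, 4.69 and 4.97 in neonatal liver and rose by 1.32 ± 0.31 (adjusted p = 0.00623), with adult replicate 1 the highest adult array where the Ccl21-type probes had it lowest. Its newborn level was 0.55 ± 0.31 above E14.5 (adjusted p = 0.168), where the Ccl21-type probes were lower. Gm21953, which follows Ccl21b in that order and has no Ccl21 synonym in the RefSeq table, differed by 0.65 ± 0.26 from neonatal to adult liver (adjusted p = 0.0831) and was lower in newborn liver than at E14.5 by −0.80 ± 0.26 (0.0232). The erythroid and immune surface lists had 1 named probe each: Tfrc (the transferrin receptor) and B2m (the light chain of MHC class I). From neonatal to adult liver Tfrc fell (−2.66 ± 0.34, adjusted p = 4.67e-05) and B2m rose (1.24 ± 0.32, 0.0107). The pancreatic amylase gene Amy2a5 fell (−3.77 ± 0.30, 5.36e-07), and 25.9% of all features were called at this step. Adult Amy2a5 was still 7.70 ± 0.30 above E12.5, where its processed signal was 4.95, 6.49 and 4.85.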

How the data were processed

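The members, lists and tests were chosen with earlier results of these data known. Per the labels' protocols, liver RNA freed of ribosomal RNA was amplified by random priming into Cy3 cRNA. Per the file headers, the deposited spot intensity values are background-subtracted, spatially detrended and unscaled between arrays (Feature Extraction 11.0.1.1; the submitters' processing notes name 10.7.3.1). The authors' deposited value table holds log2 values whose normalization is not given in the sources used here.

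Control and outlier spots were left out, spots of a probe were averaged, and log2 signal minus each array's 75th percentile was fitted with limma 3.58.1 (R 4.3.3, lmFit and eBayes, two-sided) to the 15 arrays together, 1 mean for each stage. A feature was tested where every array of 1 stage or more had it well above background (all 3). RefSeq accessions gave 116 of 123 probes a symbol. Alternatives were quantile normalization, normexp (offset 50, on median signals, since the files hold no mean), the authors' table, no filter, a replicate or slide block, each slide alone and each array left out. The number of arrays limits the precision. The text names the 4 members, the 3 likest symbols of each and the measured genes of the listed pathway and neighbourhood; Gm21953, listed as a copy, was kept out of the likest symbols. The fit was tested on simulated data.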

Additional observations from a re-analysis of the deposited data

How the results depend on the processing

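For the 4 members and the 3 within-array differences, no alternative turned a called difference, and the rise of the 3 Ccl21-type probes from neonatal to adult liver and their F tests were called under every alternative run. The slide as a block ended the calls of adult against E12.5 (Ccl21b 1.31, Gm13304 1.24), E14.5 (Gm13304 1.01) and E17.5 (Ccl21b 1.47, Gm13304 1.65; the same values within the second slide), and of newborn against E12.5 (−1.09, −1.10 and −1.19 for Ccl21b, Ccl21c and Gm13304) and E14.5 (−1.57, −1.67 and −1.43). It turned uncalled differences of Ccl21c (adult against E14.5, −0.037) and Ccl28 (newborn against E12.5, 0.32). No filter on dim probes ended 3 calls (Gm13304 adult against E14.5, 1.09; newborn against E12.5, −0.99 for Ccl21c and −1.11 for Gm13304). Under the 3 other scalings (quantile, normexp, the authors' table) Ccl21c had a call from E17.5 to newborn (−1.06, −0.85 and −1.06), and its uncalled differences turned for adult against E14.5 (−0.052, −0.046 and −0.053) and for E17.5 against E12.5 (0.016, 0.035 and 0.032). Normexp also called Ccl28 in adult against E14.5 (0.70). Only E17.5 had arrays on both slides, and with the slide as a block the SEs across slides were wider. For Ccl21b in adult against E12.5 the SE was 0.70 with the block and 0.38 without it. What else lay behind these changes was not tested.

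Leaving out 1 array at a time gave, for adult against E12.5, 0.85 to 1.74 for Ccl21b, 0.36 to 1.04 for Ccl21c, 1.01 to 1.84 for Gm13304 and −0.55 to 0.71 for Ccl28; against E14.5, 0.37 to 1.25, −0.21 to 0.47, 0.78 to 1.61 and 0.92 to 2.02; against E17.5, 1.04 to 1.93 for Ccl21b and 0.41 to 1.09 for Ccl21c. Newborn against E12.5 ran from −1.38 to −0.95 for Ccl21b, −1.18 to −0.67 for Ccl21c, −1.25 to −0.84 for Gm13304 and −0.85 to 0.41 for Ccl28, newborn against E14.5 from −1.60 to −1.10 for Gm13304, and the F value of Ccl28 from 0.79 to 4.08. Single arrays turned uncalled values only: Gm13304 gave −0.0071 without E14.5 replicate 2 in E14.5 against E12.5 (up to 0.51 without another array), Ccl21c 0.27 (down to −0.23) in E17.5 against E12.5 without E12.5 replicate 1 and −0.05 and −0.21 in adult against E14.5 without adult replicates 2 and 3, and Ccl28 0.41, 0.16 and 0.14 in newborn against E12.5 without E12.5 replicates 1 and 3 and neonatal replicate 2, −0.55 and −0.18 in adult against E12.5 without E12.5 replicate 2 and adult replicate 3, and −0.084 in adult against neonatal without adult replicate 3 (up to 0.67 without adult replicate 2). The change of Ccl21b minus Gm13304 ran from −0.20 and was 0.18 without neonatal replicate 3 and 0.013 without adult replicate 2.

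The deviations of same-numbered arrays had correlations of −0.24 to 0.48 (30 pairs, median 0.01, 7 above 0.1). The highest was that of E12.5 replicate 1 with adult replicate 1. Pairs with unlike numbers are not given beside them, so taking the numbers as names is an assumption. The replicate block changed 1 of 44 calls, Ccl28 in adult against E14.5 (1.49, adjusted p = 0.050). Counts of called features moved over 1.5 times for E14.5 against E12.5 (1843; 3002 with normexp, 1140 with no filter, 672 to 2603 without 1 array), E17.5 against E14.5 (2655; 1409 within slide 1, 1380 to 3287), newborn against E17.5 (6747; 2263 with the slide block, 2195 within slide 2, 3609 to 13308), adult against E12.5 (18979; 11844 with the block) and E14.5 (18531; 10684), and newborn against E12.5 (15650; 5397) and E14.5 (16059; 4463). The share of higher among called features was 88.5% for E17.5 against E14.5 and 71.4% to 73.3% under the other scalings, 59.4% for E17.5 against E12.5 and 45.2% to 46.9%, 53.7% for adult against E14.5 and 42.4% in the authors' table, and 50.8% for newborn against E14.5 and 40.4% in that table. Each member had 1 probe, so no other choice of probe could be made. Signal over background limits Ccl28, not the Ccl21-type probes.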
